A study of Mus musculus with 6 samples.

Results

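Immediate early genes are transcribed within minutes of a stimulus, before any new protein has been made, and most of them encode transcription factors. Their messages are short-lived, and in neurons they are used as markers of recent activity. The set described here holds 10 genes that respond to neuronal activity, growth factors or stress outside the Nr4a family: the AP-1 genes Fos, Fosb, Fosl2, Jun, Junb and Jund, the zinc finger genes Egr1 and Egr3, the activity-regulated transcription factor gene Npas4, and Arc, whose protein acts at synapses on the trafficking of glutamate receptors. The genes were chosen by symbol, and all 10 were found among the 45583 rows of the count table.

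RNA sequencing counts came from the cerebral cortex of 6 male fetuses of the Cyp19-EGFP strain, an FVBN line with a bacterial artificial chromosome in which the gene for enhanced green fluorescent protein sits in an added copy of the aromatase gene Cyp19a1. All 6 fetuses were labelled wild type and positive for Sry, and were taken at GD15.5 (gestational day) by the labels and the methods, although the study's results give a later fetal age. The dams of the 3 BPA fetuses had received bisphenol A (BPA), a plastic monomer with weak estrogenic activity, at 50 µg/kg a day from GD10.5 to GD14.5 under the skin, whereas the dams of the 3 vehicle fetuses had received peanut oil. The study describes the BPA as dissolved in ethanol and diluted with the oil, and names ethanol in its vehicle for these injections too. Each fetus gave a single library, and the dam of each fetus is not given by the labels, so that p-values measure the spread between fetuses that may share a litter. According to the study's methods, dams were killed with isoflurane the day after the last injection, and the cortex was dissected in chilled buffer and snap frozen, so the samples hold tissue after these steps and no stimulated condition was included.

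Total counts ran from 5030652 to 7180835 in the vehicle libraries and from 3444601 to 6426857 in the BPA libraries, BPA replicate 3 being the shallowest. Levels are given in CPM, the read count scaled to sequencing depth. The floor of 3 counts, which is the limit that a count of 0 allows, stood at 0.422 CPM in vehicle replicate 2 and 0.875 CPM in BPA replicate 3. All 10 dorsal cortex markers passed the filter on low counts, with summed levels from 3288 to 3816 CPM in vehicle and from 3472 to 3741 CPM in BPA. Of these 10, 8 had log2 fold changes above 0 and 2 below 0 (median 0.07), against 49.5% of all genes tested below 0. None of the dorsal markers had an unadjusted p under 0.05 in edgeR's quasi-likelihood test. All 11 markers of the ventral telencephalon had log2 fold changes below 0 (median -0.29), with groups that did not overlap for 8 of them (BPA lower, against 3.56% of all genes tested) and an unadjusted p under 0.05 for 5 (Nkx2-1, Lhx6, Lhx8, Dlx1 and Isl1, against 1.18% of all), and 0.251 was their smallest adjusted p by the quasi-likelihood test of edgeR. Summed markers of the choroid plexus, an epithelium beside the cortex, were at 233 CPM in vehicle replicate 2 and 371 CPM in BPA replicate 2, against 13.2 to 22.5 CPM in the other 4 libraries. The part of tissue makeup in the values below was not tested, and in bulk tissue fewer cells of a type and less RNA per cell cannot be told apart.

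Some genes of this set are known to be induced through CREB and through serum response factor. CREB binds the cAMP response element TGACGTCA or its core TGACG, and serum response factor binds the CArG box. RefSeq promoter windows (GRCm38.p6, 250 bases before to 50 bases after a start site) were matched for 7 of the 10 genes, namely Fos, Fosb, Fosl2, Jun, Junb, Jund and Npas4, and entries for Egr1, Egr3 and Arc were not used here. The core TGACG was found on either strand in 4 of the 7 windows, those of Fos, Fosb, Junb and Npas4, against 20.8% of all 32851 windows. The full element TGACGTCA was in 0 of the 7 windows and in 1.79% of all windows, and the CArG box was in 0 of the 7 and in 1.63% of all. The related sequence TGACATCA, which is bound by Jun and ATF proteins, was found in the Jun window and in 3.62% of all windows, and the EGR site GCGGGGGCG was found in the windows of Fosb and Fosl2 and in 2.91% of all. The AP-1 site TGANTCA was in 0 of the 7 windows and in 7.81% of all. Each motif was searched on both strands, and TGACGTCA contains the core TGACG, so these searches overlap. Sequence farther than 250 bases upstream was not searched, so a window without a match does not show that the gene lacks the site. A match is a run of letters and does not show that a factor was bound.
Stretches from the windows that hold a match and lie outside annotated exons are shown for 4 genes, to print the letters behind these matches, with TGACG or TGACATCA in capitals and up to 20 bases on each side (the EGR site in the Fosb stretch is left in lower case), 5′ to 3′ on the strand of the gene:
Fos (chr12:85473741-85473848, plus strand): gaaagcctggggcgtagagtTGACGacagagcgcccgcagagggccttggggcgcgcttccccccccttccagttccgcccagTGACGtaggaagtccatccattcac
Fosb (chr7:19310081-19310125, minus strand): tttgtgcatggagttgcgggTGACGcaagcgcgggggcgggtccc
Junb (chr8:84978830-84978874, minus strand): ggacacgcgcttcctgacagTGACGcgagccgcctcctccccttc
Jun (chr4:95052240-95052287, minus strand): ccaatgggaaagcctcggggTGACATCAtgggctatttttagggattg

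The levels of the 10 genes spanned a wide range. Per kilobase of annotated exon, Jund was highest with 51.7 CPM per kb ± 6.26 (SD, n = 6 libraries), followed by Jun at 26.3 ± 2.87 CPM per kb and Fosl2 at 6.80 ± 1.43 CPM per kb. Arc at 2.11 ± 0.337 and Junb at 2.06 ± 0.385 CPM per kb came next. Egr1 at 1.14 ± 0.522, Npas4 at 0.965 ± 0.245 and Egr3 at 0.955 ± 0.126 CPM per kb formed a lower group. Fos, the gene most often used as a marker of neuronal activation, stood at 0.496 ± 0.112 CPM per kb, and Fosb was lowest at 0.0853 ± 0.0503 CPM per kb.

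Neighbours in this order were compared within libraries as a description, with no test, because the order was set from the same 6 libraries. In 6 of the 9 neighbouring pairs the upper gene was higher in 6 of 6 libraries. These were Jund over Jun, Jun over Fosl2, Fosl2 over Arc, Junb over Egr1, Egr3 over Fos and Fos over Fosb. Arc was above Junb in 2 of 6 libraries, Egr1 above Npas4 in 4 of 6 and Npas4 above Egr3 in 4 of 6, so the order of these neighbours varied between libraries. The order rests on annotated exonic lengths from 1.67 kb for Jund to 9.68 kb for Fosl2, and transcripts shorter than the annotation would raise a gene's level.

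**Figure D1:**
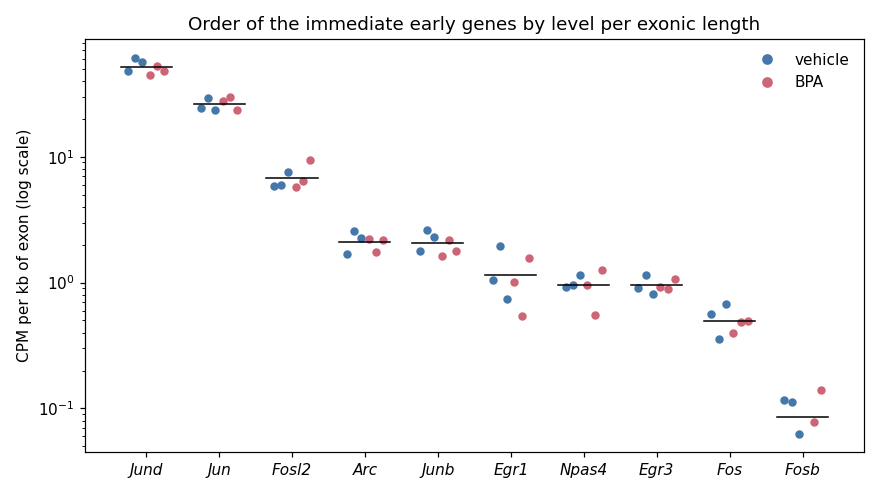
Level per exonic length of the 10 immediate early genes, in CPM per kb of annotated exon on a log axis, with a point for each library (vehicle blue, BPA red) and a bar for the mean of 6 libraries. Jund, Jun and Fosl2 stand above the other 7 genes in every library, and the single Fosb value of 0, in BPA replicate 1, cannot be drawn on this axis.

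The central comparison asked whether transcripts of these genes differed after maternal BPA. Of the 10 genes, 8 had enough counts for the model, and 0 of the 8 passed an adjusted p of 0.1 or an unadjusted p under 0.05 in edgeR's quasi-likelihood test. Over all 13741 genes tested, 0% passed the adjusted threshold and 2.20% had an unadjusted p under 0.05 (1.18% lower in BPA and 1.02% higher). The groups overlapped for all 10 genes, while they did not overlap for 6.75% of all genes tested (3.56% lower in BPA and 3.19% higher). The fitted log2 fold change of BPA over vehicle was below 0 for 6 of the 8 genes and above 0 for 2, with a median of -0.14. For Egr3, one of the 6, the mean CPM was slightly higher in BPA. Over all genes tested, 49.5% were below 0 and the median was 0.0016. Each of the 8 genes had an adjusted p of 0.9998 by this test.

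**Figure D2:**
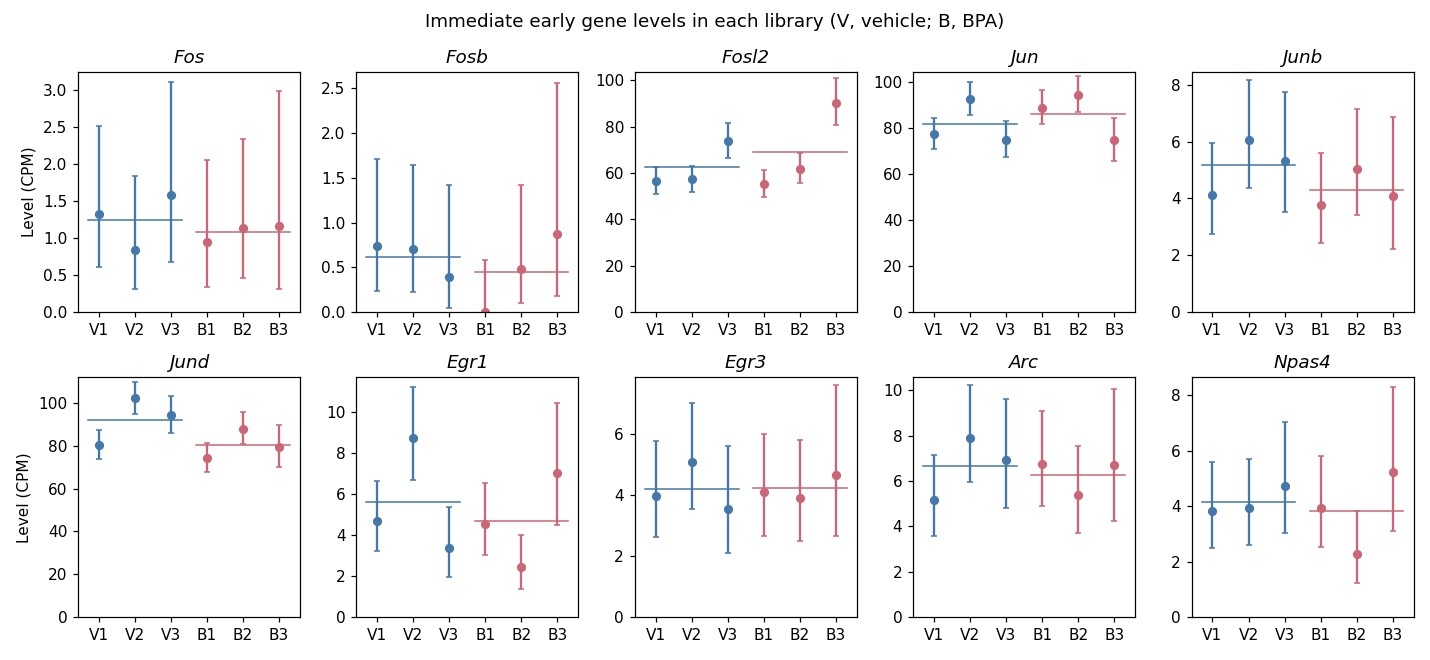
Level of each immediate early gene in CPM (linear axis from 0) in the 3 vehicle libraries (V1 to V3) and the 3 BPA libraries (B1 to B3), with exact 95% Poisson intervals for counting error and a line for each group mean. Vehicle and BPA libraries overlap for all 10 genes, and Egr1 and Fosl2 have libraries that stand well apart from others of their own group.

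The Fos family members encode proteins that bind DNA as heterodimers with Jun proteins. Fos (ENSMUSG00000021250.13, GRCm38 chromosome 12, 85473890 to 85477273, plus strand) had 9, 6 and 8 counts in vehicle and 6, 7 and 4 counts in BPA. That is 1.32, 0.845 and 1.58 CPM in vehicle and 0.942, 1.14 and 1.17 CPM in BPA. The BPA values lay within the range of the vehicle values. Vehicle fetuses averaged 1.25 ± 0.372 CPM and BPA fetuses 1.08 ± 0.122 CPM (SD, n = 3 each) (exact two-sided permutation test, p = 0.5, where 3 against 3 cannot go below 0.1). Over the 3 libraries of a group, 23 counts gave 1.21 CPM with an exact 95% Poisson interval from 0.768 to 1.82 CPM in vehicle, and 17 counts gave 1.07 CPM with an interval from 0.621 to 1.71 CPM in BPA. These intervals cover counting error alone.

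Fosb (ENSMUSG00000003545.3, chromosome 7, 19302696 to 19310051, minus strand) had 5, 5 and 2 counts in vehicle and 0, 3 and 3 counts in BPA, so that every BPA library was at or below the floor of 3 counts. Vehicle fetuses averaged 0.611 ± 0.188 CPM and BPA fetuses 0.454 ± 0.439 CPM (SD, n = 3 each) (exact two-sided permutation test, p = 0.7). A difference in Fosb was not detectable at this depth. Fos and Fosb failed the filter and were not tested in the model across all genes.

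Fosl2 (ENSMUSG00000029135.10, chromosome 5, 32135801 to 32157842, plus strand) encodes the Fos-related antigen FRA2. It made up from 96.5% to 98.3% of the counts of the 3 Fos family genes of this set, not divided by exonic length. The share leaves out Fosl1, a further Fos family gene outside the set, which had 15 to 31 counts per library. Fosl2 was at 56.5, 57.3 and 73.8 CPM in vehicle and at 55.1, 61.9 and 90.4 CPM in BPA. In each group the value of replicate 3 was the highest, and the interval of BPA replicate 3, from 80.7 to 101 CPM, did not reach that of any other BPA library. Vehicle fetuses averaged 62.5 ± 9.75 CPM and BPA fetuses 69.2 ± 18.7 CPM (SD, n = 3 each). Its log2 fold change was 0.13 (SE 0.164, 95% interval -0.22 to 0.48, unadjusted p = 0.435 in edgeR's quasi-likelihood test). Without BPA replicate 3 the log2 fold change was -0.09, so that its direction rests on that library.

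The Jun family members encode AP-1 proteins that pair with each other as well as with Fos proteins. Jun (ENSMUSG00000052684.4, chromosome 4, 95049034 to 95052222, minus strand), a gene with a single exon, was at 77.5, 92.6 and 74.9 CPM in vehicle and at 88.7, 94.6 and 74.7 CPM in BPA. Its highest and lowest values were both in BPA libraries. Group means were 81.7 ± 9.56 CPM under vehicle and 86.0 ± 10.2 CPM under BPA (SD, n = 3 each), with a log2 fold change of 0.08 (SE 0.122, 95% interval -0.18 to 0.34, unadjusted p = 0.526 in edgeR's quasi-likelihood test). As a fold, the interval ran from 0.883 to 1.26, the narrowest of the set beside that of Jund. The antisense gene Junos, which shares 232 exonic bases with Jun, had from 0 to 5 counts.

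Jund (ENSMUSG00000071076.6, chromosome 8, 70698949 to 70700616, plus strand), also of a single exon and known for its steady expression, had the smallest p of the set. It was at 80.2, 102 and 94.1 CPM in vehicle and at 74.1, 87.8 and 79.4 CPM in BPA. The groups overlapped, since BPA replicate 2 was above vehicle replicate 1. Vehicle fetuses averaged 92.1 ± 11.1 CPM and BPA fetuses 80.4 ± 6.88 CPM (SD, n = 3 each), with a log2 fold change of -0.19 (SE 0.118, 95% interval -0.45 to 0.06, unadjusted p = 0.119 in edgeR's quasi-likelihood test). The interval runs from 0.734-fold to 1.04-fold. Without vehicle replicate 1 the unadjusted p was 0.0290, with an adjusted p of 0.9994, and over the other 5 fits that left out a library it ran from 0.0561 to 0.381.

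Junb (ENSMUSG00000052837.6, chromosome 8, 84974484 to 84978718, minus strand), which is strongly inducible and can act against Jun, was at 4.12, 6.05 and 5.32 CPM in vehicle and at 3.77, 5.04 and 4.08 CPM in BPA, from 14 to 43 counts per library. Vehicle replicate 1 fell among the BPA values. Vehicle fetuses averaged 5.17 ± 0.977 CPM and BPA fetuses 4.30 ± 0.661 CPM (SD, n = 3 each), with a log2 fold change of -0.26 (SE 0.263, unadjusted p = 0.345 in edgeR's quasi-likelihood test). Junb shares 173 exonic bases with Prdx2 of the other strand, a gene with 854 to 2084 counts per library. Whether reads were counted by strand is not stated, so the counts of Junb are uncertain. The same holds for Jund, which shares 877 of its 1668 exonic bases with the antisense gene Gm11175, for which no counts were found. It also holds for Jun over the 232 exonic bases shared with Junos.

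Within the Jun family, Jun made up from 43.0% to 53.3% of the family's counts, Jund from 44.5% to 54.0% and Junb from 2.26% to 3.05%. These shares are not divided by exonic length, and per kilobase Jund was above Jun (51.7 against 26.3 CPM per kb). The ratio of Jun to Jund counts, which does not depend on library scaling, was 0.967, 0.908 and 0.797 in vehicle and 1.197, 1.078 and 0.941 in BPA. BPA replicate 3 was below vehicle replicate 1, so the groups overlapped. The ratio averaged 0.890 ± 0.0865 under vehicle and 1.07 ± 0.128 under BPA (SD, n = 3 each, exact two-sided permutation test, p = 0.2, with 0.1 the smallest possible). This ratio was chosen after the values of both genes had been seen.

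The EGR proteins bind GC-rich sites and relay a stimulus to later genes. Egr1 (ENSMUSG00000038418.7) was at 4.71, 8.73 and 3.35 CPM in vehicle, from 32, 62 and 17 counts, and at 4.554, 2.438 and 7.002 CPM in BPA, from 29, 15 and 24 counts. Within the vehicle group, the Poisson interval of replicate 2, from 6.69 to 11.2 CPM, lay above those of replicate 1, up to 6.64 CPM, and of replicate 3, up to 5.37 CPM. Within the BPA group, the interval of replicate 3, from 4.49 to 10.4 CPM, lay above that of replicate 2, up to 4.02 CPM. Both groups therefore held a high library and a low library. Vehicle fetuses averaged 5.60 ± 2.80 CPM and BPA fetuses 4.66 ± 2.28 CPM (SD, n = 3 each). Its log2 fold change was -0.39 (SE 0.375, 95% interval -1.18 to 0.41, unadjusted p = 0.318 in edgeR's quasi-likelihood test), which turned to 0.10 without vehicle replicate 2 and was -0.05 without BPA replicate 2.

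Egr3 (ENSMUSG00000033730.4, chromosome 14, 70077203 to 70082614, plus strand), a related gene induced downstream of the same signals, was at 3.97, 5.07 and 3.55 CPM in vehicle and at 4.08, 3.90 and 4.67 CPM in BPA, from 16 to 36 counts. All 3 BPA values lay within the vehicle range. Group means were 4.20 ± 0.784 CPM under vehicle and 4.22 ± 0.401 CPM under BPA (SD, n = 3 each), with a log2 fold change of -0.03 (SE 0.266, 95% interval -0.59 to 0.54, unadjusted p = 0.920 in edgeR's quasi-likelihood test). Both EGR genes were highest in vehicle replicate 2 and next highest in BPA replicate 3, but the highest library was 3.58 times the lowest for Egr1 and 1.43 times the lowest for Egr3.

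Arc and Npas4 are linked to synaptic activity more closely than the AP-1 genes. Arc (ENSMUSG00000022602.14, chromosome 15, 74669083 to 74672570, minus strand) was at 5.15, 7.88 and 6.90 CPM in vehicle and at 6.75, 5.36 and 6.71 CPM in BPA, from 23 to 56 counts. The BPA values lay within the vehicle range. Group means were 6.64 ± 1.39 CPM under vehicle and 6.28 ± 0.790 CPM under BPA (SD, n = 3 each), with a log2 fold change of -0.09 (SE 0.240, 95% interval -0.60 to 0.42, unadjusted p = 0.708 in edgeR's quasi-likelihood test).

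Npas4 (ENSMUSG00000045903.9, chromosome 19, 4984355 to 4990316, minus strand), which is induced by calcium entry into neurons, was at 3.82, 3.94 and 4.73 CPM in vehicle and at 3.93, 2.28 and 5.25 CPM in BPA, from 14 to 28 counts. The highest and the lowest library were both BPA libraries. Group means were 4.17 ± 0.494 CPM under vehicle and 3.82 ± 1.49 CPM under BPA (SD, n = 3 each), with a log2 fold change of -0.18 (SE 0.311, 95% interval -0.84 to 0.48, unadjusted p = 0.568 in edgeR's quasi-likelihood test). Without BPA replicate 2, the log2 fold changes of Arc, Npas4 and Egr3 turned to 0.02, 0.11 and 0.02. The intervals of the low genes were wide, and for Npas4 they ran from 0.558-fold to 1.39-fold and for Egr1 from 0.440-fold to 1.33-fold.

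Early genes respond to handling as well as to activity, so the spread between libraries of the same group was described by the biological coefficient of variation (BCV), the variation that remains after counting error, as estimated by edgeR. Egr1 had a BCV of 26.3%, against 15.495% on the trend for genes of its level, and its ratio of dispersion to trend was at the 99.3 percentile of all genes tested. Fosl2 had a BCV of 13.7% against a trend of 10.4%, at the 95.3 percentile. The other 6 genes lay at the 4.21 percentile for Egr3, 27.0 for Junb, 44.7 for Arc, 61.4 for Npas4, 62.1 for Jund and 66.5 for Jun. Egr1 and Fosl2 thus lay above the trend, and both were high in BPA replicate 3, where Fosl2 was highest and Egr1 was second to vehicle replicate 2.

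**Figure D3:**
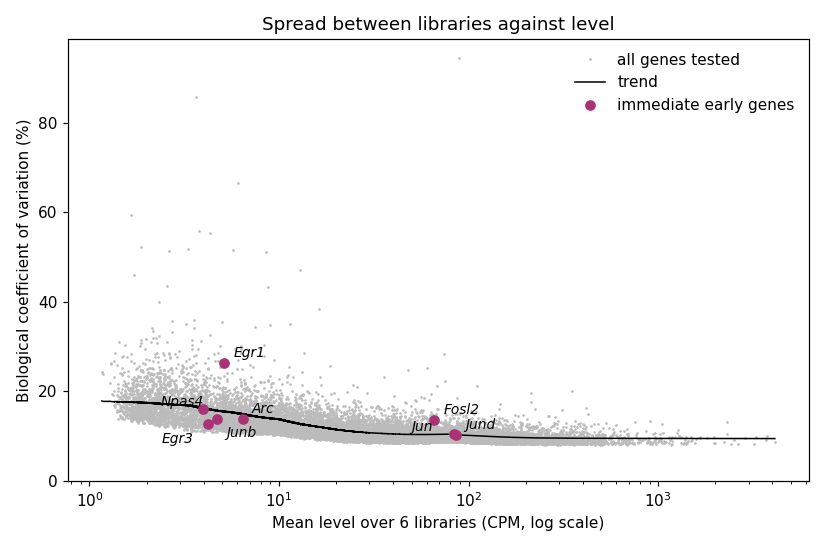
Biological coefficient of variation in percent against mean level in CPM (log axis) for all 13741 genes tested (grey), with edgeR's trend as a line and the 8 tested immediate early genes marked. Egr1, at 26.3%, lies well above the trend of 15.495%, Fosl2 lies above it by less, and the other 6 genes lie near or below it.

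Vehicle replicate 2 was the highest library for 5 of the 10 genes (Junb, Jund, Egr1, Egr3 and Arc), BPA replicate 3 for 3 (Fosb, Fosl2 and Npas4), and vehicle replicate 3 and BPA replicate 2 for 1 each. The share over all genes was not computed. Among the 29 other early response genes described below, vehicle replicate 2 was highest for 4 and BPA replicate 2 for 9. Summed over the 7 genes below Fosl2 in level, expression was 23.8, 33.2 and 25.8 CPM in vehicle and 24.0, 20.6 and 29.8 CPM in BPA. The vehicle and BPA libraries overlapped, and the lowest sum, in BPA replicate 2, stood beside the highest level of choroid plexus markers. Vehicle replicate 2, with the highest sum, had the next highest level of these markers.

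Heat shock genes mark stress of the tissue. Of 8 such genes 5 were tested, of which 0 had an unadjusted p under 0.05, with log2 fold changes from -0.02 to 0.30. The strongly inducible Hspa1a and Hspb1 had at most 3 and 1 counts in any library, and Hspa1b had from 2 to 8. Hspa8, a constitutive chaperone, was at 466 CPM in vehicle replicate 2 and 508 CPM in BPA replicate 2, against 194 to 336 CPM in the other 4 libraries. The hypoxia list had 9 of 10 genes tested, with 0 at an unadjusted p under 0.05 and a median log2 fold change of 0.03. Summed vessel markers ran from 177 to 192 CPM in vehicle and from 174 to 190 CPM in BPA, and microglia markers from 50.7 to 67.2 CPM and from 55.9 to 63.2 CPM. Blood markers ran from 286 to 599 CPM and from 334 to 416 CPM. Of 7 blood markers tested, 6 were below 0, against 49.5% of all genes tested, with a median log2 fold change of -0.26. An unadjusted p under 0.05 was reached by 1, Hba-a1, against 2.20% of all (log2 fold change -0.43, adjusted p = 0.9998 by edgeR). All 7 had a ratio of dispersion to trend above the 90 percentile of all genes tested. Summed markers of meninges and pericytes ran from 118 to 191 CPM and from 122 to 170 CPM. For each of these 4 sums the vehicle and BPA libraries overlapped.

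A wider list of 35 further early response genes held growth factor and stress targets such as Ier2, Btg2, Dusp1 and Klf6. Of these, 29 were tested, and 10 had a log2 fold change above 0 and 19 below 0, with a median of -0.02 and a range from -0.43 to 0.28. None of the 29 had an unadjusted p under 0.05 in edgeR's quasi-likelihood test, against the 2.20% of all genes tested, and 1 of them, Csrnp1, had groups that did not overlap, against 6.75% of all. Csrnp1 was at 3.97, 2.96 and 2.96 CPM in vehicle and at 1.88, 2.93 and 2.63 CPM in BPA, from 9 to 27 counts, with a log2 fold change of -0.43 (SE 0.317, unadjusted p = 0.195). Rgs2, which dampens G protein signaling, was at 41.4 CPM ± 2.65 in vehicle and 36.3 CPM ± 6.01 in BPA (SD, n = 3 each), with a log2 fold change of -0.19 (edgeR, unadjusted p = 0.179). Egr2 and Egr4 had at most 4 and 2 counts, Atf3 had from 1 to 5, and Ptgs2 had 0 in every library, which allows at most 0.875 CPM.

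**Figure D4:**
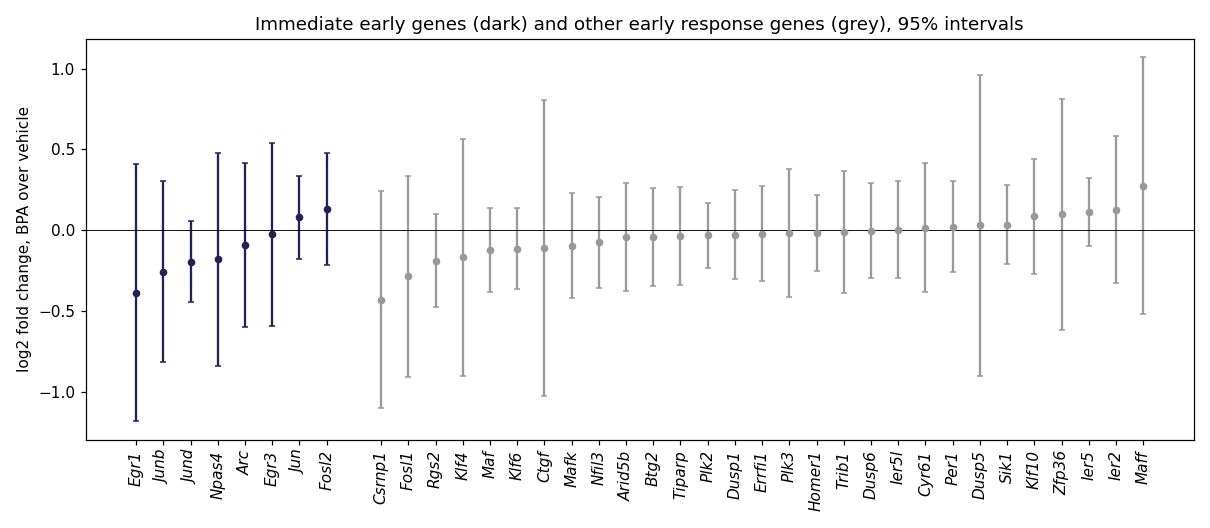
Log2 fold change of BPA over vehicle with its 95% interval for the 8 immediate early genes that were tested (dark) and for 29 other early response genes (grey), each sorted by value. Every interval includes 0, and the widest belong to Dusp5, Ctgf and Egr1.

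The 3 Nr4a genes, nuclear receptors that are induced in the same way, lay at log2 fold changes of -0.21 (Nr4a1), -0.09 (Nr4a2) and 0.09 (Nr4a3), with unadjusted p-values from edgeR of at least 0.311. Of 10 delayed activity genes, which follow the early wave, 9 were tested, 4 were above 0 and 5 below 0, and 0 had an unadjusted p under 0.05. Bdnf, a neurotrophin gene with activity-driven promoters, had a log2 fold change of -0.67 (SE 0.376, unadjusted p = 0.0956 in edgeR's quasi-likelihood test) on 6 to 18 counts. Its groups did not overlap, which held for 1 of the 9 tested, against 6.75% of all genes tested. Rasgrp1, a Ras activator, was at 17.3 CPM ± 3.99 in vehicle and 14.6 CPM ± 3.88 in BPA (SD, n = 3 each), a log2 fold change of -0.26.

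The signaling proteins and transcription factors that switch on early genes were well represented. All 30 listed genes were tested, among them Srf, Creb1, Crebbp and Mef2c, and 15 were above 0 and 15 below 0, with a median log2 fold change of -0.01 and a range from -0.19 to 0.21. Atf1, a CREB relative, was at 13.7 CPM ± 2.08 in vehicle and 15.8 CPM ± 0.660 in BPA (SD, n = 3 each). Mapk10, which encodes the neuronal kinase JNK3, was at 139.5 CPM ± 12.02 and 124.3 CPM ± 14.79. Of the 12 listed partners of AP-1 and EGR proteins, 9 were tested, with 6 above 0 and 3 below 0. The groups did not overlap for 1, Atf2 (log2 fold change -0.09, unadjusted p = 0.363 by edgeR), against 6.75% of all genes tested. Mafg, a small Maf protein gene, had a log2 fold change of 0.11 and Cops5, whose product binds Jun, of -0.14. No gene tested in either list had an unadjusted p under 0.05.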

How the data were processed

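The authors deposited raw read counts per gene for 6 libraries. According to the study's methods, strand-specific libraries gave single-end reads that were aligned to GRCm38 with TopHat 2.0.14 and counted with featureCounts on GENCODE models. StringTie 1.2.4 is also named. Options for strand and multiple alignments are not given in the sources used here. Groups came from the labels, and replicates were numbered in accession order, which pairs no samples.

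Genes were kept by filterByExpr (minimum count 10, minimum total 15), which left 13741 genes with 99.7% of counts. BPA was compared with vehicle by the quasi-likelihood test of edgeR 4.0.16 in R 4.3.3 with TMM scaling and Benjamini-Hochberg adjustment at 0.1. The quasi-likelihood test and the filter were chosen here. Standard errors are those implied by the test. CPM used TMM-scaled library sizes, and exonic lengths and coordinates came from GENCODE M21 (GRCm38). Permutation tests were exact. A floor of 3 counts marked detection. A chi-square test of gene counts, divided by its degrees of freedom, gave 2.40 to 7.88 between pairs of libraries, so none were counted as 1 sample.

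All 10 genes are named with their values. From each pathway list, the 2 tested genes with the smallest unadjusted p are named, and marker lists, stress lists among them, are given mainly by counts and sums. Fosl1, Ier2, Btg2, Dusp1, Klf6, Egr2, Egr4, Atf3, Ptgs2, Ctgf, Dusp5, Atf2, Nr4a3, Srf, Creb1, Crebbp, Mef2c, the heat shock genes and the overlapping genes were named after their values were seen. The genes and lists were chosen with earlier results of these data known. Alternatives were DESeq2 1.42.0, limma-voom (limma 3.58.1), the exact test, a robust fit, 3 other scalings, 3 other filters, thinning, and omission of each library.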

Additional observations from a re-analysis of the deposited data

How the results depend on the processing

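No paired analysis was possible because the labels give no replicate numbers that the groups share. Each alternative gave 0 of the immediate early genes at an adjusted p under 0.1, and at an unadjusted p under 0.05 it gave 0, apart from 1 gene, Jund, without vehicle replicate 1 (0 to 1 when a library was left out). Jun stayed above 0, and Jund and Junb below 0, under every alternative that tested them. Thinning all libraries to the smallest total turned the log2 fold change of Egr3 to 0.22, of Arc to 0.020 and of Npas4 to 0.26. When a library was left out, Egr1 ranged from -0.71 to 0.10, Egr3 from -0.12 to 0.14, Arc from -0.25 to 0.067, Npas4 from -0.41 to 0.11 and Fosl2 from -0.090 to 0.27. The cause was not tested.

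Over all genes, 0 passed the adjusted threshold, against 3 with DESeq2, 2 with the exact test and 19 with no filter, and 0 to 1 when a library was left out. An unadjusted p under 0.05 was reached by 302 genes. The number was 126 by DESeq2, 620 without a filter and 162 with at least 10 CPM in 3 libraries, which tested 3 of the immediate early genes, and 194 to 708 when a library was left out (708 without vehicle replicate 2, 563 without BPA replicate 2, and 194 without vehicle replicate 3 or BPA replicate 1). Fos and Fosb, tested when no filter was used, had log2 fold changes of -0.19 and -0.68, neither with an unadjusted p under 0.05. Depth limits Fosb most, with 0 to 5 counts per library, followed by Fos with 4 to 9.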
